A study of Rattus norvegicus with 9 samples.

Results

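Interferon-stimulated genes are the genes that cells switch on when an interferon binds its receptor. A list of 36 of them was followed in the synovium of Lewis rats, the tissue that lines joints, by matching gene symbols in the deposited table. A row was found for 35 of the 36 among 32883 genes, and Samd9l was not analysed here. All 35 had enough reads to enter the test, which covered 15068 genes. RNA sequencing gave 3 libraries for each of 3 groups. These were TZG (G30, G31, G48), read here as rats given the liquid extract that the series title names, AIA (M2, M6, M8), read as the arthritis model, and NC (C56, C59, C61), read as the control. The labels give only these abbreviations, the strain and the tissue. They state no dose, timing, age or sex, do not say whether TZG rats had arthritis, and do not say whether each library is a separate animal. The p-values below therefore describe the spread between libraries, part of which may be technical.

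Library totals ran from 12536231 to 16402126 reads. A count of 0 allows up to 3 reads, worth 0.183 to 0.239 CPM (reads scaled to the library total) in a library. These limits are without TMM factors, which the CPM values below carry. These limits cover counting error only. Of the 9 libraries, 5 were tied to a sample by the number in the column name. The other 4 (G31, G48, M2 and M8) were placed in a group by the column's letter alone. All 7 markers of synovial fibroblasts had reads in every group, with summed levels between 5535 and 47528 CPM. Marker sums of other tissues differed between libraries. Skeletal muscle markers summed to 24562 CPM in NC library C61, and cartilage and bone markers to 8484 CPM in TZG library G48. Neutrophil markers summed to 2322 CPM in G48, 363 to 836 CPM in the other 2 TZG libraries, 2312 CPM in AIA library M8, 317 and 320 CPM in the other 2 AIA libraries, and 45.2 to 118 CPM in NC. In bulk tissue, fewer cells of a type and less RNA per cell cannot be told apart.

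Type I interferons signal through a receptor made of IFNAR1 and IFNAR2 and through the kinases JAK1 and TYK2. A complex that contains STAT2 and IRF9 then binds the interferon-stimulated response element (ISRE) in the promoters of its targets. Interferon gamma signals through IFNGR1 and IFNGR2 with JAK1 and JAK2, and many of its targets, Irf1 among them, carry a gamma-activated site (GAS) in the promoter. Cells sense viral and self nucleic acids with receptors such as MDA5 and RIG-I, which leads to interferon production, and many of the induced genes block steps of viral replication. In human rheumatoid synovium, interferon-stimulated genes are a well-described and variable feature.

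RefSeq's promoter table for assembly GRCr8 held 27 of the 36 members; Ddx58, Dhx58, Mx2, Ifit1, Ifit2, Samd9l, Isg15, Usp18 and Rtp4 had no entry. In the 250 bases before the start of each gene, the ISRE letters GAAANNGAAA (TTTCNNTTTC on the other strand) were found in 16 of the 27 promoters (59.3%), against 1140 of all 33469 promoters (3.41%). The GAS letters TTCNNNGAA, which read the same on both strands, were found in 6 of the 27 (22.2%), against 2566 of all promoters (7.67%). A match of the 2 motifs overlapped in 1 member promoter, that of Bst2. A match describes the letters only. 6 promoters are printed because they belong to genes on which the values below turn. Each is written 5′ to 3′ on the strand of its gene, with ISRE letters in capitals, or, for Irf1, which held no ISRE letters, with the GAS letters in capitals.
Irf7 (chr1:205800024-205800273, minus strand): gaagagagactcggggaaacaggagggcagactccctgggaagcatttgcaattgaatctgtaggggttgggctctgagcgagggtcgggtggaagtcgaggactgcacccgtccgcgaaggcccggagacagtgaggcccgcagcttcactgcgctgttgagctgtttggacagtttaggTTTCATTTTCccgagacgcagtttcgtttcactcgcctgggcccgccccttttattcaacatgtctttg
Rsad2 (chr6:48788121-48788370, minus strand): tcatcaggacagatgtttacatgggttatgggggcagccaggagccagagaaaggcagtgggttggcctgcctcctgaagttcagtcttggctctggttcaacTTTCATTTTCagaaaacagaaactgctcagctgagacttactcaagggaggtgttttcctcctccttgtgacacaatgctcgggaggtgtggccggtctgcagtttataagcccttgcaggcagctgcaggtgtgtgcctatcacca
Ifit3 (chr1:241527076-241527325, plus strand): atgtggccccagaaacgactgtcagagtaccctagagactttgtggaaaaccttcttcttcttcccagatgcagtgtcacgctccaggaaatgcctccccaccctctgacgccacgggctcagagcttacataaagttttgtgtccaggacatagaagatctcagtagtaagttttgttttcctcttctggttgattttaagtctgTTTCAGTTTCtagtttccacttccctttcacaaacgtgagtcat
Ifi44 (chr2:243303841-243304090, minus strand): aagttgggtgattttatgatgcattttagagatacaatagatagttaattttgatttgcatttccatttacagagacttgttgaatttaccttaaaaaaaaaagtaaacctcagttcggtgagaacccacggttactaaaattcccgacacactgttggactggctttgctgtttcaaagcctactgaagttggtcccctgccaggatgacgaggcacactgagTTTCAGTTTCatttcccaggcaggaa
Gbp2 (chr2:234005477-234005726, plus strand): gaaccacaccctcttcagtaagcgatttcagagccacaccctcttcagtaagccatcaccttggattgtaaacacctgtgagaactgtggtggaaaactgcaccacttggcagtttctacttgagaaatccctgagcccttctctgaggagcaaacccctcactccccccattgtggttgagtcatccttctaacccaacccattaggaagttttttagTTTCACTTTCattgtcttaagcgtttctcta
Irf1 (chr10:38417685-38417934, plus strand): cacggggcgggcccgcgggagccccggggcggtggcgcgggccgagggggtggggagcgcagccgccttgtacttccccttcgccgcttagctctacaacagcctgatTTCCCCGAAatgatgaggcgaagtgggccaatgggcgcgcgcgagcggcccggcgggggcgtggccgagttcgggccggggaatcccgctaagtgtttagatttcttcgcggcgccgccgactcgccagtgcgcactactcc
The ISRE letters began 147 bases before the start of Rsad2, 69 before that of Irf7, 44 before that of Ifit3, 31 before that of Gbp2 and 26 before that of Ifi44. The promoters of Mx1, Cmpk2, Trim25, Parp9 and Dtx3l held neither set of letters in this window.

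The members spanned a wide range of levels per length. Ifi27, a small mitochondrial membrane protein, was at the top, with 236 ± 97.4 FPKM in TZG, 268 ± 29.8 FPKM in AIA and 273 ± 24.2 FPKM in NC (mean ± SD, n = 3 each, FPKM recomputed from counts and gene lengths). Bst2, or tetherin, which holds budding virus particles at the cell surface, had 95.9 ± 38.2 FPKM in TZG, 106 ± 16.2 FPKM in AIA and 111 ± 20.6 FPKM in NC. Both were present in every group at levels that overlapped between groups. The lowest averages over all 9 libraries were those of Oasl, at 2.98 FPKM, and of Ifit1, at 1.03 FPKM. Interferon-stimulated genes were thus read in the control joint lining as well as in the other groups, with Ifit1 as the exception described below.

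Among the transcription factors of interferon signalling, Irf7, which amplifies type I interferon production, varied 4.28-fold between its lowest and highest library, against 1.43-fold for Irf9 and 1.5-fold for Stat2, both part of the ISRE-binding complex. Irf7 had 57.6, 65.1 and 22.5 CPM in TZG, 65.2, 36.3 and 82.8 CPM in AIA, and 79.2, 96.2 and 78.6 CPM in NC. All 3 TZG libraries lay below all 3 NC libraries, while AIA overlapped with both. The share of all genes whose groups separate in this way is not given here. Such separations, here and below, are therefore not read as traits of the members. Irf9 stayed between 43.8 and 62.5 CPM and Stat2 between 55.9 and 84 CPM over the 9 libraries. Irf1, a target of interferon gamma, had 58, 68.4 and 52.3 CPM in TZG, 66, 97.4 and 70.2 CPM in AIA, and 54.7, 51.3 and 82.1 CPM in NC. Its highest library was M6, in which Irf7 was lowest within AIA, whereas within TZG both factors were highest in G31 and lowest in G48.

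The 3 RNA sensors, RIG-I (Ddx58), MDA5 (Ifih1) and LGP2 (Dhx58), recognise viral RNA in the cytoplasm. Ddx58 had 14.2, 16.5 and 13.4 CPM in TZG, 19.4, 16.5 and 20.5 CPM in AIA, and 21.2, 22.4 and 14.6 CPM in NC. Ifih1 ran from 17 CPM in G48 to 34.8 CPM in C59, and Dhx58 from 7.54 CPM in G48 to 20 CPM in C59. G48 was the lowest and C59 the highest of the 9 libraries for each of the 3 sensors.

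The 12 antiviral effectors held the widest spreads of the list. The dynamin-like GTPases Mx1 and Mx2 trap viral nucleoproteins, and lie 120467 bases apart at chr11:37891156-37914983 and chr11:38035450-38059950 in the deposited table, whose genome build is not given in the sources used here. Mx2 had 28.7, 33.9 and 5.75 CPM in TZG, 29, 13.4 and 46.9 CPM in AIA, and 47, 48.7 and 40.4 CPM in NC. Its highest library was 8.47 times its lowest, and TZG did not overlap with NC. Mx1 had 32.9, 41.2 and 7.6 CPM in TZG, 22.1, 18.1 and 28.2 CPM in AIA, and 27.1, 46.8 and 22.6 CPM in NC. For Mx1 the groups overlapped, and G48 again stood lowest.

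Rsad2 encodes viperin, an enzyme that makes a chain-terminating nucleotide, and its neighbour Cmpk2, 14086 bases away on chromosome 6, encodes a nucleotide kinase that works beside it. Rsad2 had 15.3, 47.7 and 10.3 CPM in TZG, 11.4, 11.9 and 78.6 CPM in AIA, and 18.2, 12.4 and 15 CPM in NC. A single library in each of TZG and AIA, G31 and M8, was high, and the other 7 lay between 10.3 and 18.2 CPM. Cmpk2 had 12.6, 24.1 and 4.41 CPM in TZG, 12.1, 11.4 and 24.9 CPM in AIA, and 19.3, 16.6 and 21.6 CPM in NC. G31 and M8 were its highest libraries too, and G48 its lowest. Ifit3, whose protein binds foreign RNA together with its IFIT relatives, followed with 44.7 CPM in G31 and 47.4 CPM in M8, and 17.2 to 26.2 CPM in the other 7 libraries.

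Ifit1, which binds viral RNA that lacks the host cap marking, was nearly without reads in the control group. It had 17, 16 and 145 reads in TZG (1.13, 1.11 and 9.26 CPM), 7, 12 and 92 reads in AIA (0.513, 0.814 and 6.34 CPM), and 0, 0 and 2 reads in NC. Every TZG and AIA library lay above every NC library, although most of the reads came from G48 and M8. Pooled over each group, the level was 87.5 times that of NC in TZG (95% exact interval 23.9 to 728) and 57.6 times in AIA (15.6 to 482), where the intervals cover counting error alone and rest on 2 NC reads. G48 and M8 were also the libraries with the highest neutrophil marker sums, given above, and with the highest B and plasma cell marker sums, at 98.8 and 81.1 CPM against 1.14 to 2.47 CPM in NC. Among the neutrophil markers 8 of 8 had a higher mean in AIA than in NC and 7 of 8 in TZG than in NC, and Ltf was at 0 in TZG and NC. Their part in the level of Ifit1 was not tested. Ifit1 lies at chr1:252944103-252946170 in the deposited table, 32721 bases from Ifit3 and 43377 bases from Ifit2. Both of these had reads throughout NC, at 17.3 to 26.2 CPM for Ifit3 and 65.9 to 87 CPM for Ifit2.

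Of the other effectors, Oas1a, which makes the 2-5A messenger that activates RNase L, had 16, 15.9 and 6.52 CPM in TZG, 13.6, 8.21 and 13 CPM in AIA, and 16, 18.2 and 17.7 CPM in NC. All 3 NC libraries lay above all 3 AIA libraries. Its relatives ran from 4.14 to 12.4 CPM for Oasl and from 8.2 to 20.5 CPM for Oasl2. Ifit2 ran from 48.6 to 92.1 CPM, and Bst2 from 74.2 to 182 CPM. Eif2ak2, the kinase PKR that halts translation when it binds double-stranded RNA, ranged over 1.37-fold, from 51.4 to 70.1 CPM, against a median of 2.24-fold over the members and 1.98-fold over all tested genes. How reads that match several genes were assigned is not given in the sources used here, so levels within the Mx, Oas, Ifit and Gbp families are uncertain to that extent.

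The guanylate-binding proteins, GTPases that attack the vacuoles of intracellular pathogens and respond strongly to interferon gamma, had the order of Irf7 within TZG, highest in G31 and lowest in G48, but not within AIA. Gbp2 had 78.4, 101 and 61.3 CPM in TZG, 78.9, 114 and 85.9 CPM in AIA, and 81.6, 75.6 and 66.6 CPM in NC. M6 was the highest library for Gbp2, as for Irf1, and the groups overlapped. Gbp5 ran from 17.2 CPM in G48 to 38 CPM in G31, with 36.7 CPM in M6.

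Of the 7 members that work through ubiquitin, ISG15 or ADP-ribose, Isg15, Usp18 and Herc6 had the widest ranges, at 3.49-fold, 3.22-fold and 2.4-fold between the lowest and highest library, and G48 was the lowest library for each. Isg15, the ubiquitin-like modifier attached to proteins during infection, had 10.6, 25.7 and 7.35 CPM in TZG, 15.1, 8.35 and 16.7 CPM in AIA, and 17.7, 15.4 and 17.3 CPM in NC. Usp18, which removes ISG15 and dampens receptor signalling, had 10.5, 16 and 6 CPM in TZG, 10.5, 6.85 and 13.4 CPM in AIA, and 18, 19.4 and 9.88 CPM in NC. The groups overlapped for both. Herc6, the main ISG15 ligase in mice, ran from 7.67 CPM in G48 to 18.4 CPM in G31.

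Trim25, a ubiquitin ligase that helps activate RIG-I, was among the tightest genes within groups. It had 62.6, 61.4 and 52.3 CPM in TZG, 75.1, 70.3 and 71.3 CPM in AIA, and 62, 63.9 and 58.7 CPM in NC. All 3 AIA libraries lay above all 6 others, a separation given without the share of all genes that show one. Parp9 and its binding partner Dtx3l form a ubiquitin ligase complex, and their genes lie 1129 bases apart on chromosome 11. Parp9 had 75.4, 83.5 and 58.5 CPM in TZG, 85.9, 84.4 and 82.9 CPM in AIA, and 71.1, 80.4 and 59.7 CPM in NC, and Dtx3l had 58.9, 60.3 and 42.9 CPM in TZG, 61.9, 66.9 and 67.4 CPM in AIA, and 73.7, 59.5 and 60.6 CPM in NC. AIA lay above NC for Parp9 and above TZG for Dtx3l. Parp14, a mono-ADP-ribosyltransferase, ranged over 1.44-fold.

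In the remaining group, Ifi44, a cytoplasmic protein with antiviral activity, and Xaf1, which promotes cell death, were low in TZG. Ifi44 had 27.1, 27.1 and 17.2 CPM in TZG, 31, 28.1 and 34 CPM in AIA, and 35.6, 42.3 and 31.4 CPM in NC. Xaf1 had 10.2, 8.23 and 7.15 CPM in TZG, 10.8, 9.91 and 14.2 CPM in AIA, and 13, 12 and 12.2 CPM in NC. TZG lay below NC in every library for both genes, and also below AIA for Ifi44. Ifi44l, which lies 49291 bases from Ifi44, had 11.3, 8.17 and 8.3 CPM in TZG, 12.4, 10.7 and 14.9 CPM in AIA, and 11.8, 11.5 and 9.97 CPM in NC. Rtp4, a chaperone of taste and opioid receptors, had 14.2, 20.1 and 7.67 CPM in TZG, 15.5, 11.8 and 20.5 CPM in AIA, and 21, 22.1 and 23.2 CPM in NC. NC lay above both other groups for Rtp4, while the groups overlapped for Ifi44l in every pair. Lgals3bp, a secreted glycoprotein that binds galectins, had 179, 198 and 165 CPM in TZG, 207, 175 and 186 CPM in AIA, and 143, 183 and 115 CPM in NC. Ifi35 had the narrowest spread of all, 1.33-fold over the 9 libraries.

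**Figure D1:**
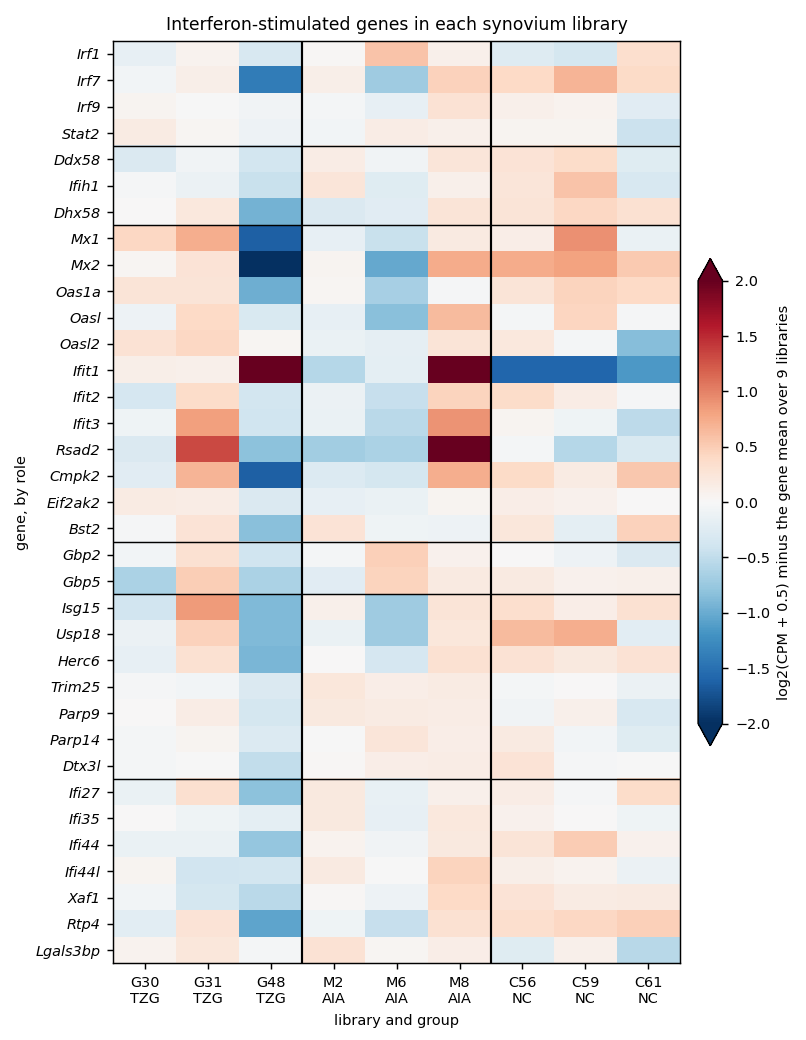
Level of each of the 35 members in each library, as log2(CPM + 0.5) minus that gene's mean over the 9 libraries, with genes grouped by role and libraries by group in the order TZG, AIA, NC. G48 is blue for most rows, M8 and G31 are red for Rsad2 and Ifit3, and Ifit1 is dark red in G48 and M8 and blue in NC.

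The members' levels differed from library to library within each group, and 2 libraries, G48 and M6, were low for many members at once. The median deviation of the 35 members from their own means, on the log2(CPM + 0.5) scale, was -0.05, 0.22 and -0.44 in G30, G31 and G48, 0.01, -0.17 and 0.22 in M2, M6 and M8, and 0.19, 0.10 and -0.03 in C56, C59 and C61. The same median over all tested genes lay between -0.02 and 0.01 in every library. G48 was the lowest of the 9 libraries for 25 of 35 members, against 17.2% of all tested genes, and the lowest TZG library for 33 of 35, against 37.3%. G31 was the highest TZG library for 25 members (35.1% of all genes). In AIA, M8 was the highest for 23 members (38.2%) and M6 the lowest for 23 (33.3%).

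**Figure D2:**
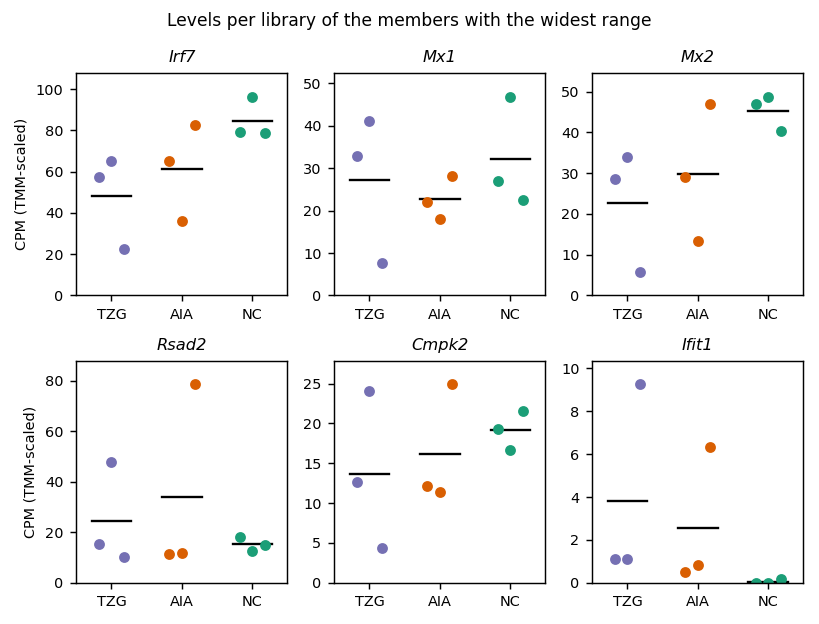
TMM-scaled CPM of Irf7, Mx1, Mx2, Rsad2, Cmpk2 and Ifit1 (y axes from 0), with a point for each library and a bar at the mean of each group. G48 is the lowest TZG point and M8 the highest AIA point for Irf7, Mx2 and Cmpk2, and Ifit1 lies at or near 0 in NC.

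In G48 and M8 the summed markers of other cell types also stood apart. Erythroid markers summed to 598 CPM in M8 and 5.65 to 85.3 CPM in the other 8 libraries. Cartilage and bone markers summed to 8484 CPM in G48 and 12.3 to 795 CPM in the other 8 libraries, and adipocyte markers to 890 CPM in G48 and 2442 to 8701 CPM elsewhere. Markers of synovial fibroblasts were highest in G48, at 47528 CPM. Macrophage markers summed to 1394, 1301 and 1129 CPM in TZG, 1332, 1454 and 851 CPM in AIA, and 1035, 1471 and 311 CPM in NC, so M8, where most members were high within AIA, was the AIA library with the lowest macrophage sum. Dendritic cell markers other than the member Bst2, which include those of the plasmacytoid cells known for type I interferon production, summed to 67.7 to 111 CPM in TZG, 78.1 to 89.7 CPM in AIA and 57.1 to 68 CPM in NC, and Siglech was at 0 in NC. The part of these cell types in the members' levels was not tested.

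In AIA against NC, no member passed the test, and with all libraries the list leaned neither way. Ifit1 had the largest difference, Trim25, Lgals3bp, Parp9 and Gbp2 stood slightly higher in AIA, and Oas1a, Usp18 and Rtp4 slightly lower, all short of the threshold. With edgeR's quasi-likelihood test and Benjamini-Hochberg adjustment over all genes, 0 of 35 members had an adjusted p under 0.05, and over all 15068 genes 0.0133% did. At an unadjusted p under 0.05 there were 2 members, Ifit1 and Trim25, both higher, against 15% of all genes (8.26% higher). DESeq2 called 1 member, Ifit1 (6.26% of all genes), limma-voom called 0 (0.00664%), and the authors' deposited table gives 1 with a q-value under 0.05, Ifit1, with a log2 fold change of 5.43 and q = 0.0025 (4.32% of the genes with a q-value there). A higher mean in AIA was found for 16 of the 35 members and a lower mean for 19. Their median log2 fold change was -0.09, and that of all tested genes -0.01. Without M8 the median of the members was -0.16, with 11 higher and 24 lower, while 52.3% of all genes were lower. Leaving out M8, the highest AIA library for 23 members, lowers this comparison by construction.

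The Ifit1 log2 fold change in AIA against NC was 5.49 ± 1.75 (SE; adjusted p = 0.19 by edgeR), and it ran from 3.55 without M8 to 8.24 without C61. Such a fitted value depends on how counts of 0 are handled, and the read ratio given above is the plainer measure. Trim25 stood 0.23 ± 0.10 higher on the log2 scale (adjusted p = 0.33) and Lgals3bp 0.36 ± 0.17 (adjusted p = 0.36; 0.21 without C61). Parp9 had 0.26 ± 0.15 (adjusted p = 0.48; 0.16 without C61) and Gbp2 0.32 ± 0.20 (adjusted p = 0.52; 0.14 without M6). Among the members with a lower mean in AIA, Oas1a had -0.57 ± 0.34 (adjusted p = 0.47), Usp18 -0.62 ± 0.40 (adjusted p = 0.53) and Rtp4 -0.47 ± 0.33 (adjusted p = 0.56). Without M6, the library low for most members, the difference was -0.38 for Oas1a, -0.29 for Rtp4 and -0.40 for Usp18. Rsad2 shows how far a single library reached, with 1.16 ± 0.82 over all libraries and -0.39 without M8. By role, the median log2 fold change in AIA against NC was 0.11 for the 4 transcription factors, -0.17 for the 3 sensors, -0.15 for the 12 effectors, 0.18 for the 2 guanylate-binding proteins, 0.02 for the 7 of the ubiquitin group and -0.09 for the remaining 7. Without M8 the median of the effectors was -0.42, with 11 of 12 lower, that of the transcription factors 0.03 and that of the remaining 7 -0.14. Without C61 the median of the sensors was -0.37, that of the transcription factors -0.01 and that of the remaining 7 -0.01.

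In TZG against AIA, 27 of 35 members had a lower mean in TZG, yet none passed the test. The lean of the whole list was lost when either G48 or M8 was left out, without M8 mainly through the effectors. G48 was the lowest TZG library for 33 members and M8 the highest AIA library for 23. Leaving out either raises this comparison for such members by construction, so the loss is not read as a result. Without G31, the highest TZG library for 25 members, the median moved further down. The smallest p-values belonged to Trim25, Ifi44l, Xaf1, Ifi44 and Ddx58, with log2 fold changes between -0.45 and -0.30. By edgeR 0 of 35 members had an adjusted p under 0.05, as did 0% of all genes. At an unadjusted p under 0.05 there were 3 members, Trim25, Ifi44l and Xaf1, all lower, against 12.6% of all genes (6.37% lower). DESeq2 called 0 members (2.12% of all genes), limma-voom 0 (0%), and none had a q-value under 0.05 in the authors' deposited table (0.578%). The median log2 fold change of the members was -0.20, and that of all genes 0.00. Without G48 it was 0.01, with 19 members higher and 16 lower, and without M8 it was -0.02.

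Trim25 had a log2 fold change of -0.30 ± 0.10 in TZG against AIA (SE; edgeR adjusted p = 0.32), with no overlap between the 2 groups, and it stayed between -0.33 and -0.21 when any library was left out. Ifi44l and Xaf1 both had -0.45 ± 0.19 (adjusted p = 0.39), Ifi44 -0.38 ± 0.20 (adjusted p = 0.44) and Ddx58 -0.35 ± 0.19 (adjusted p = 0.45). Without M8 the values were -0.32 for Ifi44l and -0.28 for Xaf1, and without G48 Ifi44 had -0.18. Dtx3l had -0.28 ± 0.15 (adjusted p = 0.46; -0.12 without G48), Parp9 -0.22 ± 0.15 (adjusted p = 0.56; -0.08 without G48) and Irf1 -0.39 ± 0.22 (adjusted p = 0.48; -0.19 without M6). Rsad2 had -0.48 ± 0.81 with all libraries and 1.07 without M8. The median over the 12 effectors was 0.02 with 6 on each side; 11 of 12 were higher without M8 (median 0.33) and 10 of 12 without G48 (median 0.20). The median was, over the 4 transcription factors -0.20, the 3 sensors -0.23, the 2 guanylate-binding proteins -0.26, the 7 of the ubiquitin group -0.21 and the remaining 7 -0.20. Without G48 these were 0.00, -0.10, -0.08, -0.08 and -0.12 in the same order, and without M8 they were -0.04, -0.20, -0.28, -0.21 and -0.17.

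**Figure D3:**
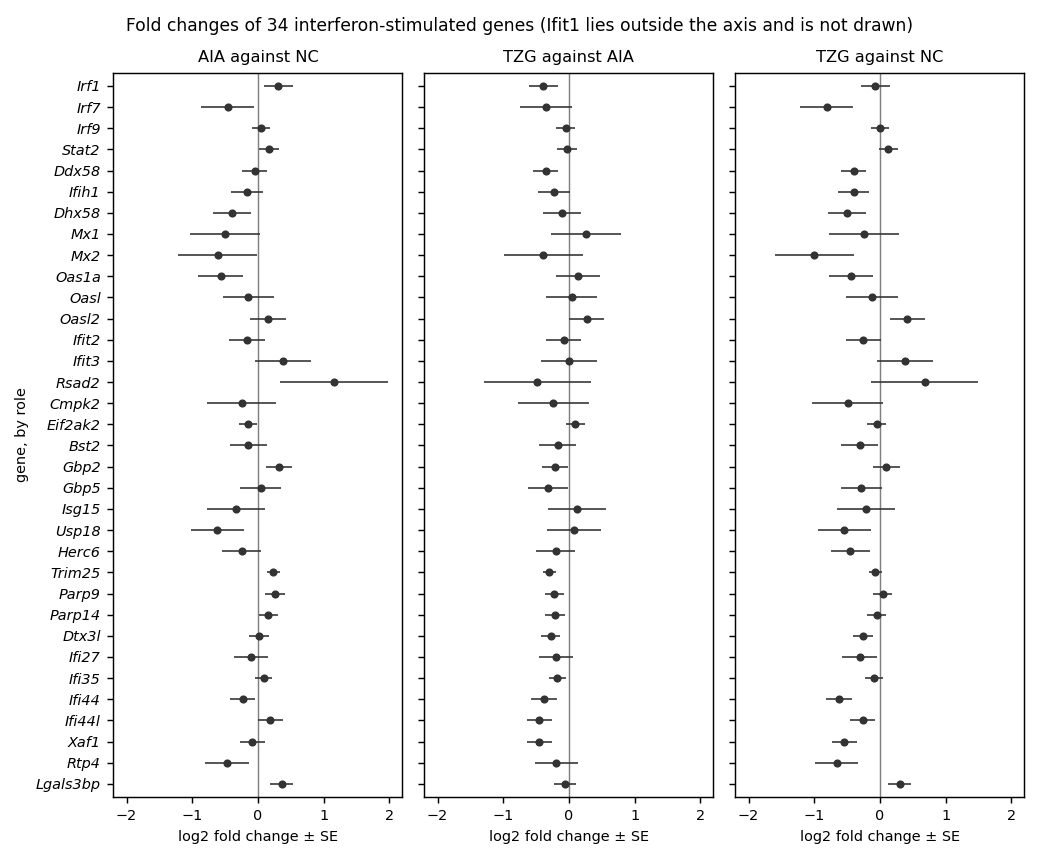
Log2 fold changes with standard errors of 34 members in AIA against NC, TZG against AIA and TZG against NC (edgeR, 3 libraries a group). Ifit1, at 5.49, 0.58 and 6.07, lies outside the axis in both comparisons with NC and is not drawn in any panel. Most error bars cross or come near 0, and none of the points passed the adjusted threshold.

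In TZG against NC, 26 of 35 members had a lower mean in TZG, again with none past the test. Ifi44, Xaf1 and Rtp4 were lower in every TZG library than in every NC library, as were Irf7, Dhx58 and Mx2, and Ifit1 was higher. The share of all genes that separate in this way is not given here, so the separation is not read as a trait of the members. This comparison had by far the most calls over the genome, with 10.3% of all genes past the threshold by edgeR, against 0 of 35 members. At an unadjusted p under 0.05 there were 3 members, Ifit1 higher and Ifi44 and Xaf1 lower, against 29.1% of all genes (15.1% higher and 14% lower). DESeq2 called 2, Ifit1 higher and Ifi44 lower (19.7% of all genes), limma-voom 0 (7.83%), and the authors' deposited table gives only Ifit1, with a log2 fold change of 6.03 and q = 8.1e-05 (8.54%). The median log2 fold change of the members was -0.25, against -0.02 over all genes, and it was -0.05 without G48, with 16 members higher and 19 lower. Leaving out G48, the lowest TZG library for most members, raises this median by construction. Without G31, the highest TZG library for most, it moved further down.

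Ifit1 had a log2 fold change of 6.07 ± 1.73 in TZG against NC (SE; edgeR adjusted p = 0.058), from 4.30 without G48 to 8.83 without C61. Ifi44 had -0.62 ± 0.20 (adjusted p = 0.079) and Xaf1 -0.54 ± 0.19 (adjusted p = 0.11), and each was at -0.42 without G48. Ddx58 had -0.40 ± 0.19 (adjusted p = 0.19) and Lgals3bp, on the higher side, 0.30 ± 0.17 (adjusted p = 0.29; 0.17 without C61). For Irf7 the value was -0.81 ± 0.40 (adjusted p = 0.22) and for Rtp4 -0.66 ± 0.33 (adjusted p = 0.22), which became -0.46 and -0.35 without G48. Dtx3l had -0.26 ± 0.15 (adjusted p = 0.29; -0.11 without G48). All 3 sensors had a lower mean in TZG, with a median of -0.40, and -0.27 without G48. The medians of the other roles were -0.04 for the transcription factors, -0.18 for the effectors, -0.09 for the guanylate-binding proteins, -0.21 for the ubiquitin group and -0.31 for the remaining 7. Without G48 they were 0.03, 0.07, 0.10, 0.02 and -0.18 in the same order.

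C61, M8 and G48 were all left out in a fit chosen after seeing the data. In it edgeR called 0 members in AIA against NC, 0 in TZG against AIA and 2 in TZG against NC, Ifit1 and Ifi44. The share of all genes called in this fit is not given here, so the 2 calls are not read as a gain. Ifit1 then had 7.07 and Ifi44 -0.52 on the log2 scale. The median of the members was -0.28 in AIA against NC, 0.14 in TZG against AIA and -0.05 in TZG against NC. All 12 effectors then had a higher mean in TZG than in AIA, with a median of 0.61. In AIA against NC, 10 of 12 had a lower mean, with a median of -0.47. Over all genes, 50.7% had a lower mean in TZG than in AIA in this fit. However, G48 was the lowest TZG library for 33 members, and M8 the highest AIA library for 23. Leaving both out raises TZG against AIA for such members by construction, and leaving out M8 lowers AIA against NC. The direction of these values is therefore not read as a result. The comparisons of this fit share libraries, 2 a group, and are given side by side only.

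**Figure D4:**
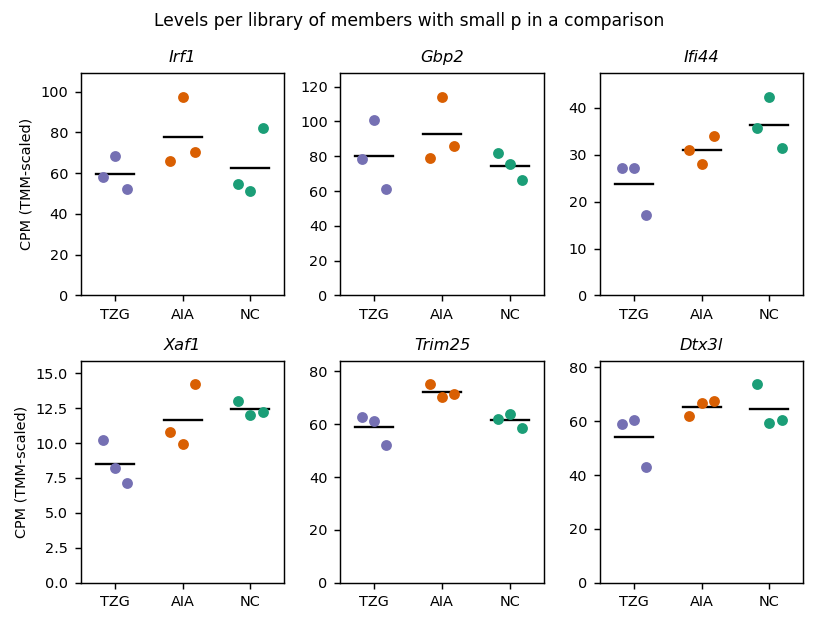
TMM-scaled CPM of Irf1, Gbp2, Ifi44, Xaf1, Trim25 and Dtx3l (y axes from 0), with a point for each library and a bar at the mean of each group. Ifi44 and Xaf1 lie lower in TZG than in NC, Trim25 is highest in AIA, and M6 is the highest library for Irf1 and Gbp2.

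The genes around the members in the pathway were read from a second list of 85, of which 75 had a row and 63 were tested. Of the interferon ligands, Ifnb1 had 0 reads in all 9 libraries and Ifng had 3 reads in G31 (0.208 CPM), 1 in G48 and 0 in the other 7, so neither could be compared at this depth. The receptor chains were well covered. Ifnar1 had 156, 169 and 175 CPM in TZG, 158, 165 and 157 CPM in AIA, and 184, 164 and 143 CPM in NC, and Ifngr1 averaged 204 ± 7.77 CPM in TZG, 178 ± 13.6 CPM in AIA and 174 ± 17.3 CPM in NC (SD, n = 3 each). By edgeR, 0 of 63 pathway genes passed in AIA against NC, a comparison in which 0.0133% of all genes did. At an unadjusted p under 0.05 there were 14, all higher (8.26% of all genes were past it and higher), DESeq2 called 5 (6.26% of all genes), limma-voom 0 (0.00664%), and 3 had a q-value under 0.05 in the authors' deposited table (4.32%). In TZG against AIA edgeR called 0 pathway genes (0% of all genes), 7 had an unadjusted p under 0.05 (12.6%), DESeq2 called 2 (2.12%), limma-voom 0 (0%), and 1 had a q-value under 0.05 in the authors' deposited table (0.578%). Their median log2 fold change was 0.21 in AIA against NC, with 51 of 63 higher, while 7367 of all 15068 genes were. It was 0.12 with 42 of 63 higher without C61, and 0.06 with 36 of 63 higher without C61, M8 and G48. The median was -0.06 in TZG against AIA and 0.12 in TZG against NC.

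In TZG against NC, 7 of 63 pathway genes passed by edgeR, 6 higher and 1 lower, in a comparison in which 10.3% of all genes did (5.79% higher and 4.53% lower). DESeq2 called 13 (19.7% of all genes), and limma-voom called 6 (7.83%), all of the 7 but Traf3. The authors' deposited table gives 6 with a q-value under 0.05 (8.54%), of which Jak2, Socs3 and Irf8 are among the 7. By each method the share of the list that was called lay near the share of all genes. The 6 that rose by edgeR were the receptor chain Ifngr2, the kinase Jak2, the feedback regulators Socs3 and Ptpn2, the signalling adaptor Traf3 and the myeloid transcription factor Irf8. Sp100, a nuclear body protein that represses viral DNA in human cells, fell. Ifngr2 had 70.4, 60.9 and 63.8 CPM in TZG, 52, 56.6 and 57.8 CPM in AIA, and 38.9, 39.2 and 45.1 CPM in NC. The 3 groups did not overlap, and TZG stood 0.66 ± 0.11 above NC on the log2 scale (SE; edgeR adjusted p = 0.014). Jak2 had 133, 106 and 148 CPM in TZG, 75.3, 104 and 81.2 CPM in AIA, and 72.6, 76.6 and 57.2 CPM in NC, a log2 fold change of 0.91 ± 0.18 against NC (adjusted p = 0.022). Socs3, which blocks JAK signalling and is also a target of interleukin 6 family cytokines, had 57.1, 50.4 and 50 CPM in TZG, 28.4, 20.8 and 8.89 CPM in AIA, and 11.2, 8.62 and 15.3 CPM in NC. TZG lay above every library of both other groups, with 2.17 ± 0.39 against NC (adjusted p = 0.018).

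Ptpn2, a phosphatase that removes phosphate from JAK1, averaged 25.7 ± 3.66 CPM in TZG, 20.2 ± 2.22 CPM in AIA and 14.8 ± 2.16 CPM in NC (SD, n = 3 each), and the log2 fold change of TZG against NC was 0.80 ± 0.17 (SE; edgeR adjusted p = 0.024). Traf3 averaged 34.9 ± 1.21 CPM in TZG, 24.4 ± 2.9 CPM in AIA and 24.7 ± 2.87 CPM in NC, a difference from NC of 0.50 ± 0.13 (adjusted p = 0.046). Sp100 averaged 11.5 ± 0.613 CPM in TZG, 15.3 ± 0.639 CPM in AIA and 17.6 ± 2.01 CPM in NC, and fell by 0.62 ± 0.13 in TZG against NC (adjusted p = 0.027). For Ptpn2, Traf3 and Sp100, as for the other 4, no TZG library overlapped with NC. The share of all genes without such overlap is not given here either. Irf8 had 55.1, 54.9 and 78 CPM in TZG, 32.8, 75.5 and 43.3 CPM in AIA, and 21.3, 20.2 and 12.7 CPM in NC, with 1.79 ± 0.33 against NC (adjusted p = 0.019). Irf8 is a gene of macrophages, dendritic cells and B cells. The mean of 7 of 8 macrophage markers, 5 of 6 dendritic cell markers and 5 of 5 B and plasma cell markers was higher in TZG than in NC. Summed macrophage markers overlapped, at 1394, 1301 and 1129 CPM in TZG and 1035, 1471 and 311 CPM in NC, the lowest in C61. Dendritic cell sums overlapped too, and B and plasma cell sums did not. The part of these cell types in the level of Irf8 was not tested. All 7 calls were lost without NC library C56. Without C61, M8 and G48 the calls were 5, Ifngr2, Jak2 and Socs3 from among the 7 with Cgas and Ifitm1 beside them. The share of all genes called is not given here for either fit.

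**Figure D5:**
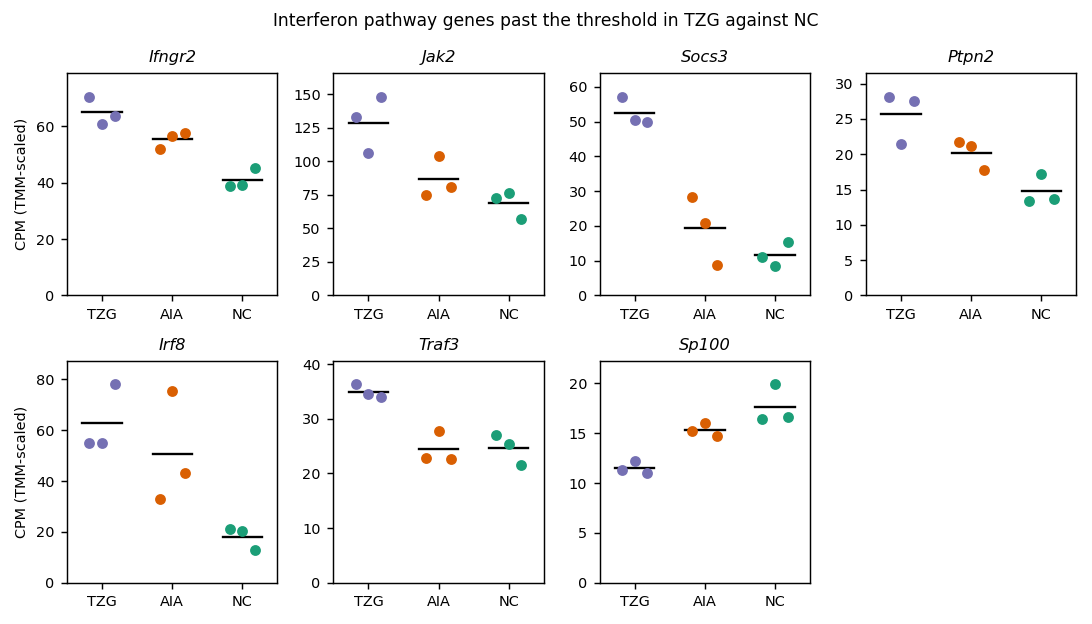
TMM-scaled CPM of the 7 pathway genes that passed the test in TZG against NC (y axes from 0), with a point for each library and a bar at the mean of each group. TZG and NC do not overlap in any panel. Ifngr2, Socs3, Jak2 and Traf3 also stand above AIA in TZG, and Sp100 below it.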

How the data were processed

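Synovium RNA was purified with an RNeasy kit and sequenced from SMARTER mRNA libraries, per the labels' protocols. The deposited table gives raw read counts of each gene for 9 libraries, with FPKM values beside them, per the file headers. The authors deposited in the same table the log2 fold change of each comparison, and a p-value and q-value for it. The submitters' processing notes name fastp, HISAT2, StringTie 1.3.3b and edgeR 3.30.3 without roles. The genome build is not given in the sources used here, nor are strandedness and the handling of reads that match several genes. Of the 2 deposited tables, which are identical, 1 was used, and 4 FPKM columns of libraries placed by letter were not used. FPKM was instead calculated here for all libraries from the counts. Gene lengths for this were derived from the 5 usable FPKM columns, which gave lengths within a relative spread of 4.3e-05 for genes with at least 20 reads.

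Counts of all 9 libraries entered a single edgeR 4.0.16 fit (R 4.3.3, robust quasi-likelihood, TMM factors, filterByExpr) with a mean per group and Benjamini-Hochberg adjustment over 15068 genes at 0.05. CPM values are TMM-scaled. The standard error of a log2 fold change was its absolute value over the root of the F statistic. The steps were also run on simulated counts, in which genes varied independently and their spread was capped. No library was shifted as a whole there, so that run does not bear on power or false calls in these data. Alternatives were DESeq2 1.42.0, limma-voom (limma 3.58.1), RLE and upper-quartile factors, no filter and a stricter filter, 2 groups at a time, each library left out, and the 5 columns matched by number. The members and lists were chosen with earlier results of these data known, so no test of the list as a whole is given. Given in full were, in each comparison, members past the threshold and the 8 with the smallest p; of the pathway genes, those past the threshold, with Ifnb1, Ifng, Ifnar1, Ifngr1 and Cxcl10, and 1 more gene that is not reported here. Mx1, Cmpk2, Isg15, Rsad2 and Mx2 were added after their values were seen. Cxcl9, Cxcl11 and Ciita, given further below, are also outside this rule. Promoter sequences and names came from RefSeq tables for assembly GRCr8, and coordinates of genes are those of the deposited table.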

Additional observations from a re-analysis of the deposited data

How the results depend on the processing

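No paired analysis was possible because the labels give no replicate numbers that the groups share. The count of members called was 0 in all 3 comparisons by edgeR and under RLE or upper-quartile factors, either filter, limma-voom and fits of 2 groups. DESeq2 called 1 in AIA against NC and 2 in TZG against NC. Libraries were left out in edgeR fits only. In TZG against NC these called 0 to 1 without 1 library (1 without M8, Ifit1) and 2 without C61, M8 and G48. For pathway genes, DESeq2 called 5 in AIA against NC (6.26% of all genes), 2 in TZG against AIA (2.12%) and 13 in TZG against NC (19.7%). By edgeR, leaving out 1 library gave 0 to 1 in AIA against NC (Nlrc5 without M2). It gave 0 to 7 in TZG against NC (0 without C56, 3 without G30, 4 without G48). An edgeR fit of 2 groups called 4 in TZG against NC. Without C61, M8 and G48 there was 1 in AIA against NC (Socs3). For the fits of 2 groups and those that leave out libraries, the share of all genes called is not given here.

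The median log2 fold change of the members ran from -0.16 (without M8) to 0.01 (without M6 or C59) in AIA against NC, from -0.35 (without G31) to 0.01 (without G48) in TZG against AIA, and from -0.42 (without G31) to -0.05 (without G48) in TZG against NC. The columns matched by number leave G30 alone in TZG and M6 alone in AIA. With only these columns the median was -0.32 in AIA against NC and 0.18 in TZG against AIA. Without C61, M8 and G48 the median was -0.28 and 0.14, a direction that this choice of libraries favours, as described above. In TZG against AIA, Ifi44l (0.08) and Xaf1 (0.04) changed direction with only the columns matched by number, which set G30 against M6. For both genes G30 was the highest TZG library and M6 the lowest AIA library. Over all genes edgeR and DESeq2 called 2 and 940 in AIA against NC, 0 and 300 in TZG against AIA, and 1555 and 2951 in TZG against NC. Counts of a few reads, as for Ifit1 in NC and the interferon ligands, limit what can be compared.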

Other observations

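Among the pathway genes known as targets of interferon gamma, the chemokines Cxcl9, Cxcl10 and Cxcl11 varied widely within groups. Cxcl9 had 20.2, 26.4 and 18.4 CPM in TZG, 16.9, 61 and 27.2 CPM in AIA, and 20.7, 13.9 and 36.8 CPM in NC. Cxcl10 had 4.73, 52.6 and 2.87 CPM in TZG, 3.01, 22.3 and 8.34 CPM in AIA, and 9.39, 2.7 and 7.06 CPM in NC. Its highest library was G31, the TZG library in which most members were high, and its next highest was M6. Cxcl11 had 12.3 CPM in M6 and 6.85 CPM in G31, and 0.254 to 2.3 CPM in the other 7 libraries. Ciita, the master regulator of class II antigen presentation, had 31, 33.1 and 44.8 CPM in TZG, 22.5, 52.3 and 18.6 CPM in AIA, and 13.1, 12.9 and 1.94 CPM in NC. M6 was thus the highest library for Cxcl9, Cxcl11 and Ciita, as it was for the members Irf1 and Gbp2. Irf7, Mx2, Isg15 and Usp18 were lowest within AIA in that same library. These genes are a selection. Cxcl10 and Gbp5 were highest in G31 and Irf8 in G48. Of the 35 members, M6 was the highest library for 3 (5.1% of all genes) and the lowest AIA library for 23 (33.3%). The contrast is therefore not read as a pattern of M6.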
